A study of Mus musculus with 6 samples.

Results

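The transcripts described here are those of the proteasome, the protease complex that degrades ubiquitin-tagged proteins. Members were taken by gene symbol: every protein-coding gene named Psma, Psmb, Psmc, Psmd or Psme followed by a number, with a count of 10 or more in at least 3 of the 6 libraries. This gave 41 of the 36528 gene IDs listed, 5 of them the interferon-inducible subunits Psmb8, Psmb9, Psmb10, Psme1 and Psme2. Of 46 symbols that begin this way, 2 were under the count rule. Psma8 had no read in any library, and Psmb11 had 2, 2 and 0 reads in Parental and 0, 2 and 0 in IRF2_KO. The least abundant member in any library, Psmb9, had 23 reads there. Another 3 symbols go on after the number (Psmc3ip, Psme2b and Psme3ip1) and are kept apart from the counts of members.

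All 6 libraries came from HOXB-8 cells, mouse bone marrow progenitors held in a dividing state by a Hox transcription factor; the extraction notes also name them iMACs. Groups are labelled Parental (3 libraries) and IRF2_KO (3 libraries), and the notes describe a control with a Luc guide RNA and knockout lines made with the Irf2 guide gRNA2. No treatment, time or animal age is given, and whether a line is a single clone is not stated. Whether the 3 libraries within a group are separate cultures is not recorded, so the spread behind the p-values may be technical.

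The proteasome has a barrel-shaped core particle of alpha and beta rings. Its catalytic sites lie in Psmb5, Psmb6 and Psmb7 in the constitutive particle, replaced by Psmb8, Psmb9 and Psmb10 respectively in the immunoproteasome, which favours peptides that fit MHC class I molecules. A regulatory particle of ATPases (Psmc) and non-ATPase subunits (Psmd) binds, unfolds and feeds ubiquitin-tagged proteins into the core. Psme1 and Psme2 form an alternative activator ring that interferon raises, Psme3 forms a nuclear one, and Psme4 encodes a large single-chain activator. IRF2 belongs to the interferon regulatory factors, which bind GAAA repeats in the control regions of such genes.

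Library totals ran from 29070160 to 39925038 counts, and the members took 0.634% to 0.650% of the counts in Parental and 0.578% to 0.594% in IRF2_KO. Irf2 itself stood at 41.1, 42.4 and 41.1 CPM (counts scaled to library size with TMM factors) in Parental and at 40.3, 37.0 and 40.1 CPM in IRF2_KO. Its log2 fold change of -0.08 did not pass (edgeR adjusted p = 0.209). A guide can disrupt a gene without lowering its RNA, so this value does not check the labels. Of the macrophage markers, 9 of 10 tested were higher in IRF2_KO, and their summed level was 568 to 578 CPM in Parental and 1675 to 1679 CPM in IRF2_KO. The macrophage gene C1qb was at 0 in every library, and C1qa and Cd163 were too low to test. Progenitor markers fell in 3 of 3 tested: Mycn 18.7-fold, Kit 9.60-fold and Myb 1.36-fold. Their sum, mostly Myb, was 734 to 736 CPM in Parental and 471 to 489 CPM in IRF2_KO, with Cd34, Hoxa9 and Meis1 too low to test (Meis1 at 0). Of 10 neutrophil markers 4 rose and 3 fell (11447 to 12441 CPM in Parental, 9535 to 11011 CPM in IRF2_KO), and of 4 dendritic markers tested 3 rose and 1 fell (34.3 to 36.3 against 52.0 to 59.3 CPM, Siglech at 0). Lymphoid markers, none of which could be tested, summed to at most 0.119 CPM in any library. The part that this shift in myeloid markers takes in the values below was not tested, and in bulk samples fewer cells of a type cannot be told from less RNA per cell.

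Across the 41 members, 19 were lower in IRF2_KO, 1 was higher and 21 did not pass (edgeR quasi-likelihood test, Benjamini-Hochberg adjusted over 13353 genes, threshold 0.05). Over all genes tested, 47.2% were called, 23.6% lower and 23.6% higher, so the share of members called in either direction (48.8%) is near the background. By direction the members differed from it, with 46.3% called lower and 1 of 41 called higher. All 5 inducible subunits fell, Psmb9 and Psmb8 by far the most, and the other 36 members gave 14 falls and 1 rise, the largest of these being a fall of 18.2%. The median log2 fold change was -0.50 for the inducible subunits and -0.08 for the others, against -0.01 for all genes tested. The CPM of the groups did not overlap for 24 members lower in IRF2_KO and 3 higher, where 27.6% and 26.4% of all genes tested did the same. The median coefficient of variation of a member within a group was 3.19% in Parental and 2.43% in IRF2_KO. The largest was 9.27% in Parental and 29.8% in IRF2_KO, the latter for Psmb9.

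To compare levels between genes, the deposited nRPKM was used, reads per gene length and library depth, adjusted by the authors' size factor. In Parental the 41 members ranged from 7.48 nRPKM for Psme2 to 272 nRPKM for Psmb1, with a median of 91.1. Psmb9 (7.90 nRPKM) and Psmb8 (11.1 nRPKM) ranked 40 and 39 of the 41, among the least abundant of the set in Parental too. Psmb10 was at 23.5 nRPKM and Psme1 at 63.5 nRPKM, against 48.0 to 142 nRPKM for the constitutive catalytic subunits. Core subunits that stand together in the finished particle at equal number spanned a wide range, from 11.7 nRPKM for Psma3 to 272 nRPKM for Psmb1. Only reads that align to a single place were counted, which bears on these levels: in GENCODE M21 transcripts, 59.3% of the 50-base words of Psme2, 57.1% of those of Psmb5, 55.8% of those of Psmb3 and 55.4% of those of Psma5 also occur in another gene, mostly Psme2b for Psme2 and pseudogenes for the others. Levels of such genes are understated by an unknown amount. For Psma3 and Psmb1, the ends of the core range, the shared words came to 22.0% and 2.50%. The words shared by Psmb10, Psme3 and Psme4 came to 0.0%.

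**Figure D1:**
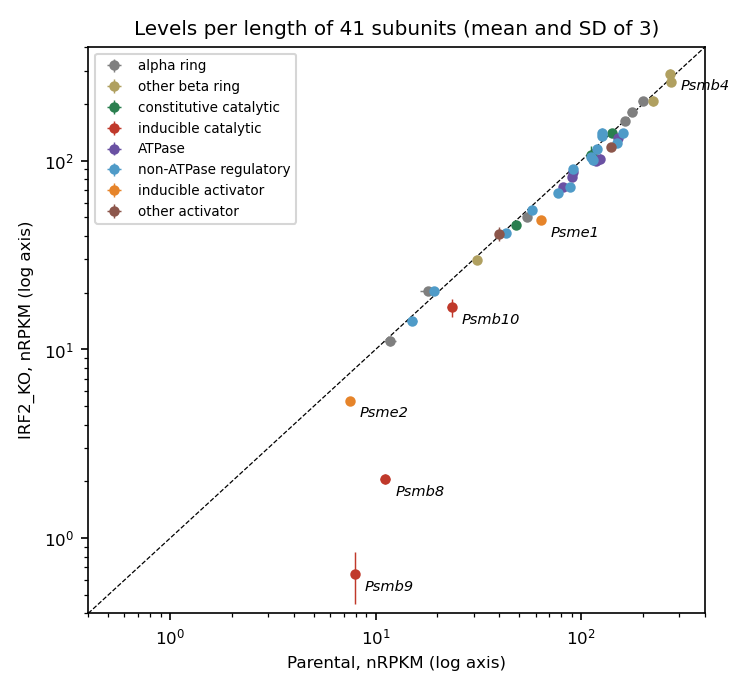
Level per length of each of the 41 members in Parental (x axis, nRPKM, log scale) and IRF2_KO (y axis, nRPKM, log scale), as mean and SD of 3 libraries, coloured by class; the dashed line marks equal levels. Most members lie along the line, and Psmb9 (7.90 against 0.647 nRPKM) and Psmb8 (11.1 against 2.06 nRPKM) lie far below it.

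Psmb9 (Entrez gene 16912, GRCm38 chromosome 17, 34182030 to 34187330), the caspase-like site's replacement, was at 13.02, 13.51 and 14.07 CPM in Parental and 0.773, 1.43 and 1.10 CPM in IRF2_KO. The lowest Parental library was thus well above the highest IRF2_KO library. The fall was 12.3-fold (log2 fold change -3.62, SE 0.14, edgeR adjusted p = 4.30e-13, n = 3 per group) and it ranked 45 from the lowest among the 13353 genes. Its IRF2_KO values rest on 23, 41 and 37 reads.

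Psmb8 (Entrez gene 16913, chromosome 17, 34198195 to 34201454), which supplies the chymotrypsin-like site of the immunoproteasome, was at 16.0, 14.3 and 15.4 CPM in Parental and 2.92, 2.58 and 2.91 CPM in IRF2_KO. It fell 5.42-fold (log2 fold change -2.44, SE 0.10, edgeR adjusted p = 9.89e-13), with no overlap of the groups. Psmb9 and Psmb8 were the only members that fell 2-fold or more, a size of fall called in 2.26% of all genes tested.

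Psmb10 (Entrez gene 19171, chromosome 8, 105935728 to 105938392), which takes the trypsin-like position, had a much smaller change. Its level was 35.1, 38.3 and 39.2 CPM in Parental and 24.3, 29.6 and 25.9 CPM in IRF2_KO. The groups did not overlap, and it fell 1.41-fold (log2 fold change -0.50, SE 0.07, edgeR adjusted p = 1.42e-05).

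Psme1 (Entrez gene 19186, chromosome 14, 55578494 to 55581527), the alpha chain of the inducible activator ring, was at 64.0, 62.5 and 65.0 CPM in Parental and 47.8, 49.7 and 48.0 CPM in IRF2_KO. It fell 1.32-fold (log2 fold change -0.40, SE 0.05, edgeR adjusted p = 1.96e-06). Psme2 (Entrez gene 19188, chromosome 14, 55587440 to 55591101), the beta chain, was at 13.4, 12.9 and 13.5 CPM in Parental and 9.61, 9.06 and 9.51 CPM in IRF2_KO, a 1.41-fold fall (log2 fold change -0.49, SE 0.08, edgeR adjusted p = 3.69e-05). Both chains of the ring therefore fell with no overlap between the groups. Psme2b (Entrez gene 621823, chromosome 11), a relative of Psme2 that shares most of its sequence, gave more counts than Psme2 itself, 38.4, 39.4 and 39.6 CPM in Parental and 27.2, 28.0 and 27.5 CPM in IRF2_KO (log2 fold change -0.50, SE 0.05). How reads of the beta chain divide between Psme2 and Psme2b is uncertain, since 69.3% of the 50-base words of Psme2b also occur in other genes.

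For the constitutive catalytic subunits, none of the changes passed the test. Psmb6 was at 117, 125 and 131 CPM in Parental and 106, 131 and 123 CPM in IRF2_KO, with groups that overlap (log2 fold change -0.05, 95% interval -0.19 to 0.08). Psmb5 was at 43.7, 42.8 and 42.4 CPM against 40.4, 41.6 and 40.4 CPM (log2 fold change -0.07, 95% interval -0.18 to 0.03). Psmb7 was at 156, 147 and 152 CPM against 150, 152 and 146 CPM (log2 fold change -0.02, 95% interval -0.11 to 0.07). With edgeR 0 of the 3 passed (0 at an unadjusted p under 0.05, 0 with DESeq2 and 0 with limma-voom). Each interval still admits a fall of a size called in other members, and the sign for Psmb6 turned without IRF2_KO replicate 1 (0.032). Groups did not overlap for Psmb5 and overlapped for Psmb7.

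**Figure D2:**
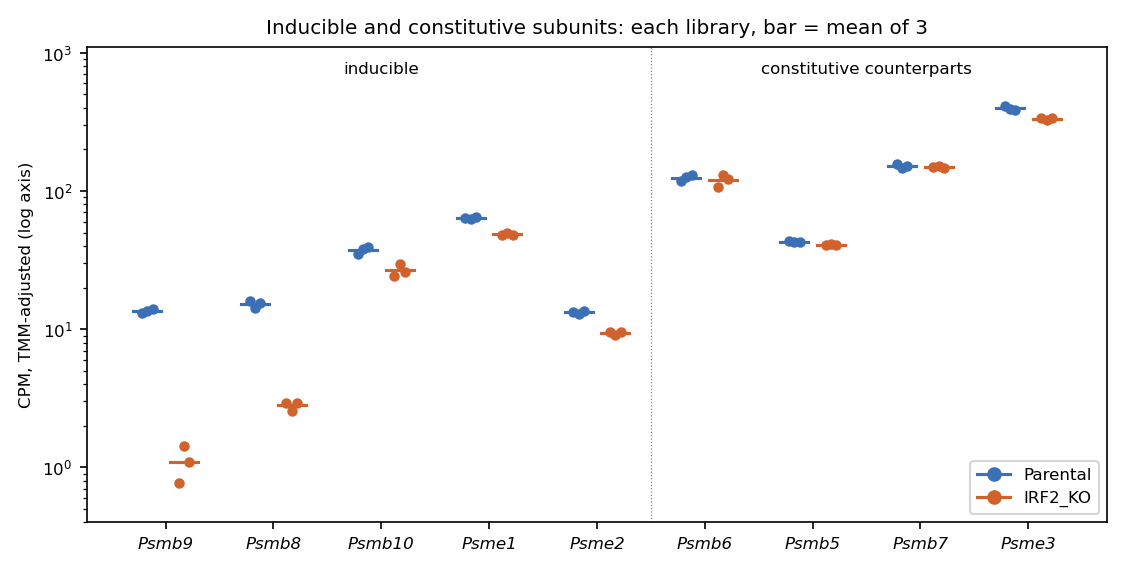
Normalised level (CPM, log axis) of the 5 inducible subunits, of the constitutive counterparts Psmb6, Psmb5 and Psmb7, and of Psme3 in each library, with Parental in blue, IRF2_KO in orange and a bar at the mean of 3 libraries. Psmb9 and Psmb8 drop furthest, and Psmb10, Psme1 and Psme2 less. Psmb6, Psmb5 and Psmb7 lie near their Parental level, and Psme3, drawn beside them, fell by 15.8%.

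Each inducible catalytic subunit was then set against its counterpart within a library, and Psme1 and Psme2 against Psme3, on log2(nRPKM + 0.01), which removes the scaling between libraries. In Parental, Psmb8 made up 19.3%, 17.9% and 19.2% of the sum of Psmb8 and Psmb5, and in IRF2_KO 4.52%, 3.90% and 4.51%. Psmb9 made up 6.64% ± 0.123 (SD, n = 3) of its pair with Psmb6 in Parental and 0.588% ± 0.118 in IRF2_KO. Psmb10 made up 14.2% ± 0.996 of its pair with Psmb7 in Parental and 10.6% ± 0.844 in IRF2_KO. Every inducible catalytic transcript was thus the smaller of its pair in Parental already, and in IRF2_KO it was outnumbered by more, with 140 to 211 nRPKM of Psmb6 for each nRPKM of Psmb9.

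The log2 ratio differed between the groups by -2.36 for Psmb8 to Psmb5, by -3.58 for Psmb9 to Psmb6 and by -0.48 for Psmb10 to Psmb7. For the activators it differed by -0.15 for Psme1 to Psme3 and by -0.24 for Psme2 to Psme3, where Psme3 itself fell. Psme3 forms a ring of its own, so these 2 pairs compare levels and not subunits that replace each other. In all 5 pairs the 3 ratios of IRF2_KO lay below the 3 of Parental, and each exact permutation test, two-sided, gave p = 0.10, the smallest that 3 against 3 libraries allow (0.10 also after Benjamini-Hochberg adjustment over the 5 pairs). Over the 6 catalytic transcripts together, the inducible ones held 12.1%, 12.5% and 12.5% of the summed nRPKM in Parental and 5.98%, 6.496% and 6.11% in IRF2_KO. Shared sequence bears unequally on the partners, so the shares within a pair are uncertain in size. The 50-base words found in another gene were 57.1% for Psmb5 and 2.67% for Psmb6, mostly in a pseudogene, and 0.0% for Psmb10. They were 5.83% for Psmb8, 12.5% for Psmb9 and 28.1% for Psmb7. There the gene sharing most was the antisense Gm20496, Tap1 and the protein-coding Nek6, respectively. The word search did not separate repeated sequence from genes that overlap at the same place, where reads can still align uniquely.

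**Figure D3:**
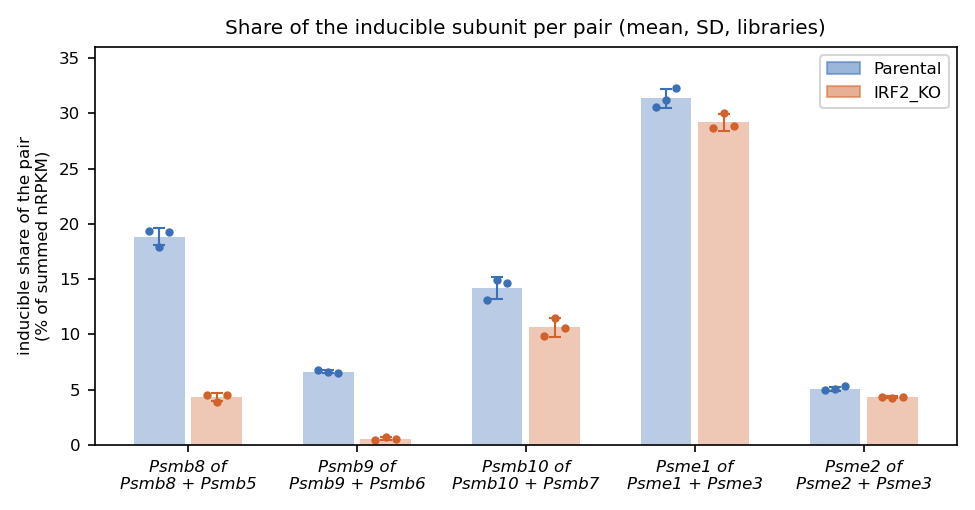
Share of each inducible transcript in the summed nRPKM of its pair (y axis, percent) for 5 pairs, as the mean (bar), SD (whisker) and single libraries (points) of Parental and IRF2_KO. The share of Psmb8 drops from 18.8% to 4.31% and that of Psmb9 from 6.64% to 0.588%. Smaller drops are drawn for Psmb10 (14.2% to 10.6%), Psme1 (31.4% to 29.2%) and Psme2 (5.11% to 4.34%). Psme3, the partner of Psme1 and Psme2, itself fell by 15.8%.

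Psmb9 and Psmb8 lie next to each other in the MHC class II region of chromosome 17, interleaved with the genes of the peptide transporter into the endoplasmic reticulum in the order Psmb9, Tap1, Psmb8, Tap2. All 4 of these neighbours fell. Tap1 went from 20.1, 22.3 and 23.4 CPM to 5.37, 6.24 and 6.09 CPM (log2 fold change -1.89, SE 0.09), and Tap2 fell by 4.17 on the log2 scale (SE 0.07). The one other protein-coding gene tested within 25 kb, H2-DMb1, lies 21801 bases from Psmb9 and did not pass (log2 fold change 0.06, edgeR adjusted p = 0.662).

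Psme1 and Psme2 sit in a different setting on chromosome 14. Within 25 kb of the pair, the tested neighbours Dcaf11, Emc9, Rnf31 and Irf9 rose, by 0.13, 1.06, 0.49 and 2.45 on the log2 scale, while the activator pair between them fell. Irf9, a transcription factor of interferon signalling, went from 7.42 ± 0.265 to 40.6 ± 0.785 CPM (SD, n = 3). Emc9 overlaps the end of Psme1, and whether strand was used in counting is not given in the sources used here. Around Psmb10 the tested neighbours Pskh1 and Slc12a4 rose, by 0.16 and 0.33, and Ctrl did not pass (0.25).

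**Figure D4:**
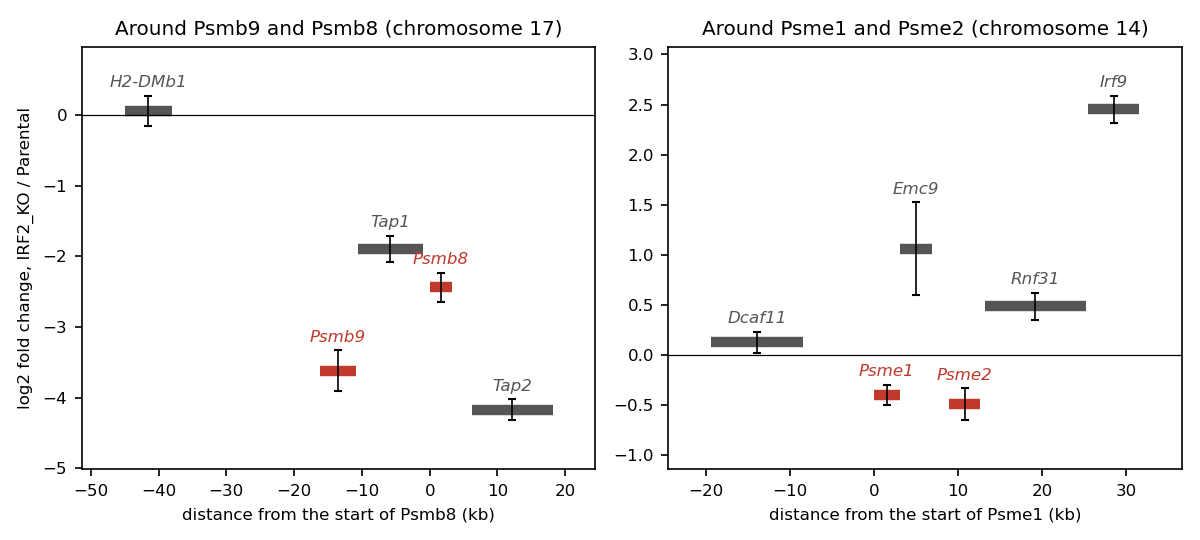
Log2 fold change of IRF2_KO over Parental (y axis, whiskers are 95% intervals) for tested protein-coding genes within 25 kb of Psmb9 and Psmb8 (left) and of Psme1 and Psme2 (right), drawn as bars over their extent in kb from the start of Psmb8 or Psme1. On the left the 4 adjacent genes Psmb9, Tap1, Psmb8 and Tap2 lie between -1.89 and -4.17; on the right Psme1 and Psme2 lie below 0 among neighbours above it.

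Start-site sequences are shown for the genes the comparison turns on, from the RefSeq table for GRCm38.p6, in lower case with the letters of searched motifs in capitals. The first is the whole interval between the RefSeq starts of Psmb9 and Tap1, which are transcribed away from each other (chr17:34187331-34187555, minus strand, 225 bases). The second is the 120 bases before Psmb8 (chr17:34198075-34198194, plus strand). The third is the stretch from -5 to 25 around the start of Psme1 (chr14:55578489-55578518, plus strand). The fourth is the 120 bases before the constitutive Psmb5 (chr14:54617996-54618115, minus strand). The last is the 120 bases before the start site given for Psmb6 in the promoter table (chr11:70525237-70525356, plus strand); that site lies 33 bases inside the RefSeq gene, which starts at 70525324, so the end of this stretch is within the gene.
Psmb9-Tap1 interval: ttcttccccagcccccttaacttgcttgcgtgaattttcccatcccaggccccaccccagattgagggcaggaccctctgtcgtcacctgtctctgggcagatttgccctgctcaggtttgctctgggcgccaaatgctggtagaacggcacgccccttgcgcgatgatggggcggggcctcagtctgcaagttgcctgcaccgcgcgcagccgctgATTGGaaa
Psmb8: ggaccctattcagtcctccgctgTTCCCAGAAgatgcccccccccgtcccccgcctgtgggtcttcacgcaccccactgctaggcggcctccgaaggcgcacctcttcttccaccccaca
Psme1: gtttcgagctgtgcTTTCGCTTTCccttcc
Psmb5: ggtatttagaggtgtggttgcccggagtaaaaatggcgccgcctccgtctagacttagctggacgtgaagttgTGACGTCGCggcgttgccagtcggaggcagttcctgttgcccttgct
Psmb6: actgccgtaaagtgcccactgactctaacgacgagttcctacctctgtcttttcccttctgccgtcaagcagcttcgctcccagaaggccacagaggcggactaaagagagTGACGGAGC

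Capitals mark an inverted CCAAT box in the Psmb9-Tap1 interval, a match to the palindrome TTCNNNGAA before Psmb8, an inverted interferon response core (GAAA, any 2 bases, GAAA) just after the start of Psme1, and an antioxidant response core (TGACNNNGC), the kind bound by NRF1, before Psmb5 and, in Psmb6, within the first bases of the RefSeq gene. Windows of 250 bases before to 50 bases after a start were given for 35 of the 41 members (not for Psmb1, Psmb2, Psmb7, Psmc3, Psmd3 and Psmd7) and were searched on both strands. The interferon response core occurred in the window of 1 of the 5 inducible members (Psme1) and of 3 of the other 30 (Psmb3, Psmd4 and Psmd9), against 3.44% of all 32851 windows. No member window held its longer form with 3 GAAA units, which contains the shorter motif and is found in 0.116% of windows. TGACNNNGC occurred for 0 of the 5 inducible and 6 of the other 30 members (12.4% of windows), TTCNNNGAA for Psmb8 and Psmd2 (8.30%), and CCAAT for 13 members, Psmb9 the inducible one among them (37.4%). A match describes these letters only. The windows of Psma3, Psma4, Psmb6, Psmc6, Psmd2 and Psmd5 are placed at a start site after that of the RefSeq gene, by 1 to 5340 bases (530 for Psmd2). The window depends on the start chosen. The GENCODE M21 principal transcript begins 434 bases before the RefSeq start for Psmb9, 405 for Psmb8, 134 for Psme1, 52 for Psmb10 and 27 for Psmb5. For Psmb6 it begins at 70525386, after the stretch shown, so by that start the marked core lies before the gene. The GENCODE starts were not searched. The longer Psmb9 transcript overlaps Tap1 on the other strand, so reads there cannot be assigned without strand.

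Outside the inducible set, 11 of the 14 falls and the 1 rise lay in the regulatory particle, which holds 20 of the 36 members. Over all genes tested, 23.6% were called lower and 47.2% in either direction. The particle was above both shares, more so for falls, and whether it differs from them was not tested. Its ATPases, the ring that unfolds substrates, fell in 5 of 6 (median -0.18 on the log2 scale), and the call of each held when any single library was left out. The largest was Psmc4, at 177, 184 and 185 CPM in Parental and 140, 154 and 155 CPM in IRF2_KO, a fall of 17.8% (log2 fold change -0.28, SE 0.05, edgeR adjusted p = 8.81e-05). Psmc5 was at 156, 148 and 161 CPM against 126, 132 and 130 CPM, a fall of 16.5%. In both genes every IRF2_KO library was below every Parental library.

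Psmc3 was at 250, 251 and 261 CPM in Parental and 208, 232 and 224 CPM in IRF2_KO, a fall of 12.97%. Psmc1 was at 126, 121 and 130 CPM against 108, 116 and 113 CPM, and Psmc2 at 168, 162 and 167 CPM against 145, 152 and 149 CPM, falls of 10.9% and 10.3%. The estimated falls of these 3 ATPases were smaller than those of Psmc4 and Psmc5, again with no overlap of groups. Whether the changes differ between these genes was not tested. Psmc6 was at 152, 141 and 146 CPM against 143, 133 and 142 CPM, overlapping, and did not pass (log2 fold change -0.07, edgeR adjusted p = 0.214).

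Among the non-ATPase genes of the regulatory particle, 6 of 14 fell, 1 rose and 7 did not pass (median -0.09 on the log2 scale). The share called in either direction was near that of all genes tested (47.2%). The share called lower was 42.9%, against 23.6% of all genes tested, and this difference was not tested. Psmd6, a scaffold subunit of the lid, was at 121, 115 and 115 CPM in Parental and 98.1, 95.2 and 94.1 CPM in IRF2_KO, a fall of 18.2% (log2 fold change -0.29, SE 0.04, edgeR adjusted p = 3.86e-05). Psmd7, the lid partner of the deubiquitinase Psmd14, was at 242, 246 and 252 CPM against 195, 209 and 208 CPM, a fall of 17.3%. Psmd14 itself, which removes ubiquitin chains as substrates enter, was at 195, 185 and 186 CPM against 184, 178 and 180 CPM and did not pass (log2 fold change -0.06, edgeR adjusted p = 0.229). Psmd7 and Psmd14 thus gave different calls, and whether their changes differ was not tested.

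Psmd3, Psmd12 and Psmd13, also lid subunits, made up most of the rest. Psmd3 was at 339, 359 and 357 CPM in Parental and 290, 321 and 309 CPM in IRF2_KO (log2 fold change -0.20, edgeR adjusted p = 0.00150). Psmd12 was at 142, 133 and 136 CPM against 120, 118 and 120 CPM (log2 fold change -0.20), and Psmd13 at 181, 180 and 190 CPM against 151, 168 and 166 CPM (log2 fold change -0.18). All 3 showed no overlap of groups. Psmd2, a large base subunit that docks ubiquitin receptors, fell by 6.78% (log2 fold change -0.10, edgeR adjusted p = 0.0415).

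Psmd4, a receptor for ubiquitin chains, was the member that rose, from 174, 183 and 182 CPM to 186, 209 and 195 CPM (log2 fold change 0.13, SE 0.05, edgeR adjusted p = 0.0276). Its call was lost on leaving out Parental replicate 1, 2 or 3 or IRF2_KO replicate 2 or 3, with log2 fold changes of 0.09 to 0.14 and adjusted p of 0.0567 to 0.137. That of Psmd2 was lost without Parental replicate 2 or 3 or IRF2_KO replicate 1 or 3 (-0.11 to -0.08). Psmd5, Psmd9 and Psmd10, which act as assembly chaperones of the ATPase ring and leave before the particle is complete, did not pass (log2 fold changes -0.09, -0.09 and 0.08). The other members that did not pass were Psmd1, Psmd8 and Psmd11, between -0.06 and 0.08; Psmd8 passed without IRF2_KO replicate 1 (0.11, adjusted p = 0.0377).

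The constitutive core particle held the fewest calls for its size (14.3%, against 47.2% of all genes tested). Of its 7 alpha subunits, which gate the barrel, 2 fell and 5 did not pass, and of the 7 constitutive beta subunits 0 passed with edgeR (1 at an unadjusted p under 0.05, 0 with DESeq2 and 1 with limma-voom). Psma7 was at 185, 184 and 193 CPM in Parental and 170, 172 and 178 CPM in IRF2_KO, a fall of 7.46%, and Psma4 was at 70.0, 66.9 and 71.9 CPM against 62.9, 65.1 and 64.1 CPM, a fall of 8.07%. Both calls depended on single libraries. That of Psma7 was lost without Parental replicate 2 or 3 or any one of the IRF2_KO libraries (log2 fold changes -0.13 to -0.09), that of Psma4 without Parental replicate 1 or 3 or IRF2_KO replicate 1 or 3 (-0.12 to -0.10), and neither was made by DESeq2.

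The other core genes ran from a log2 fold change of -0.11 (Psmb2, edgeR adjusted p = 0.0514) to 0.16 (Psma5, edgeR adjusted p = 0.0606). Psmb2 passed without Parental replicate 1 or IRF2_KO replicate 2 (-0.14 to -0.12), Psma5 without Parental replicate 3 (0.23) and Psmb4 without IRF2_KO replicate 1 (0.12). The most abundant core transcripts, Psmb1 and Psmb4, had values of -0.07 and 0.08. Of the activators that are not induced, Psme3 fell by 15.8%, from 411, 390 and 385 CPM to 337, 327 and 334 CPM (log2 fold change -0.25, SE 0.04, edgeR adjusted p = 7.10e-05), and Psme4 was at 276, 263 and 259 CPM against 299, 251 and 268 CPM and did not pass (0.04). The values of Psme4 overlap widely, and its sign turned without IRF2_KO replicate 1 (-0.028).

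**Figure D5:**
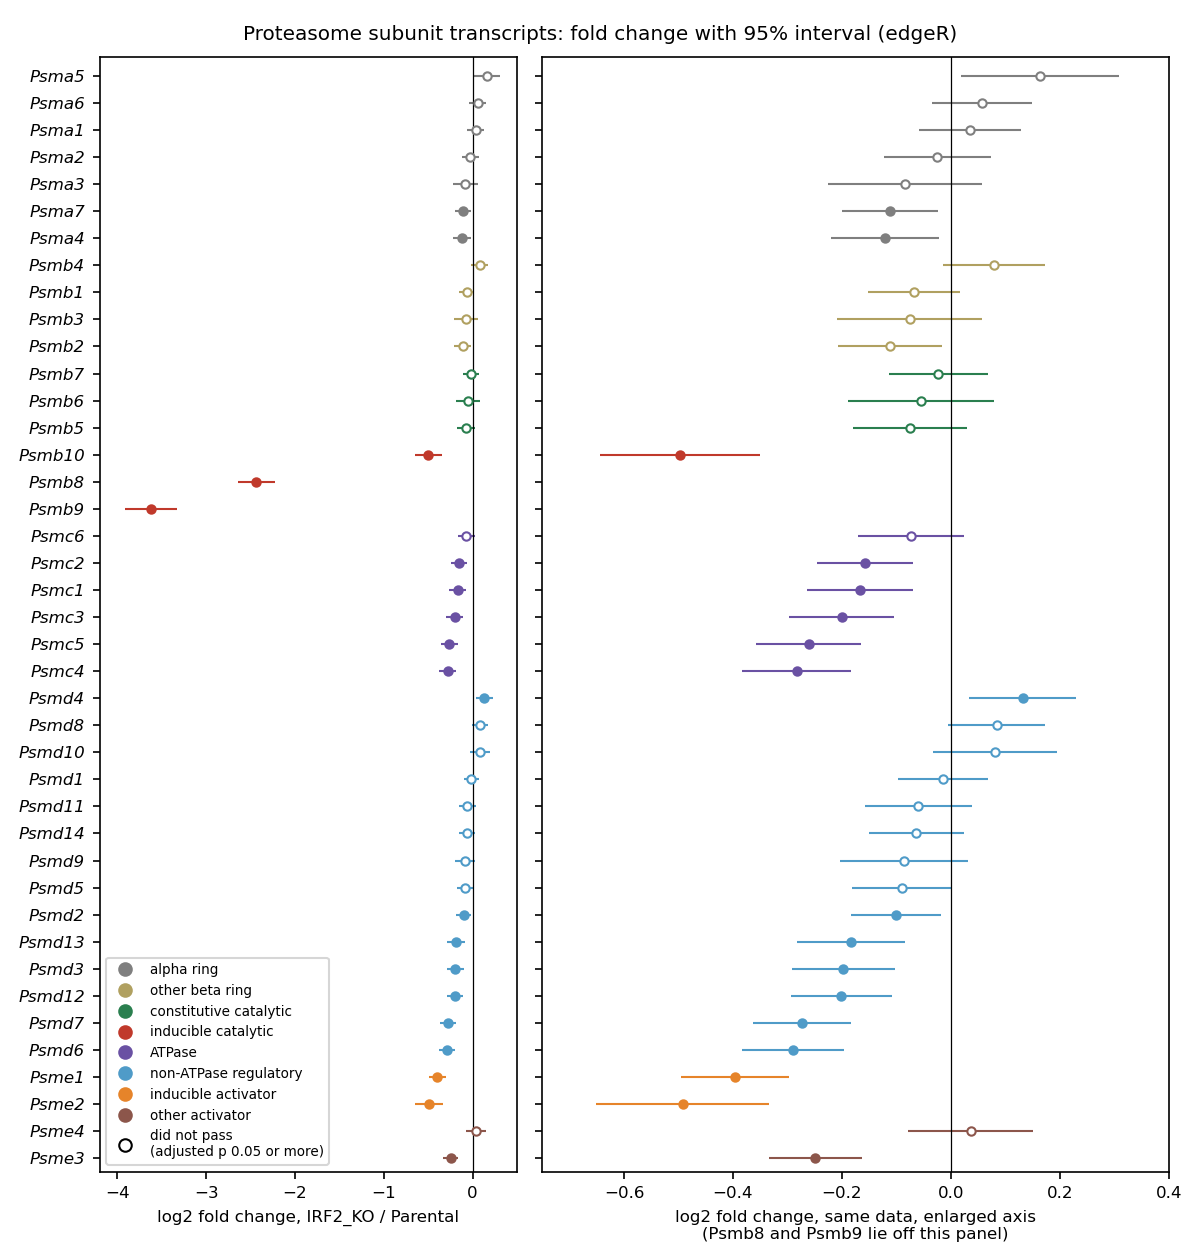
Log2 fold change of IRF2_KO over Parental with its 95% interval (x axis) for the 41 members by class, on a full axis (left) and an enlarged one (right); filled points passed at an adjusted p under 0.05. Psmb9 (-3.62) and Psmb8 (-2.44) stand apart, the ATPases lie to the left of 0, and the constitutive core subunits lie on both sides of 0.

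Genes that build, control or serve the proteasome were read from a list of 28, of which 27 were matched and tested: 10 fell, 5 rose and 12 did not pass (median -0.05 on the log2 scale). The share called was 55.6%, against 47.2% of all genes tested. This list too was chosen with earlier results of these data known, so these shares are a description only. The assembly chaperone genes of the alpha ring, Psmg1 and Psmg3, had log2 fold changes of -0.36 and -0.40 (SE 0.05 and 0.07) and both passed. Pomp, the chaperone that joins the core's parts, stood at 138.9 ± 5.12 CPM in Parental and 141 ± 2.86 CPM in IRF2_KO (log2 fold change 0.022, edgeR adjusted p = 0.712, and -0.0092 without Parental replicate 2). Nfe2l1, which encodes NRF1, the activator of proteasome genes when degradation falters, fell from 250.4 ± 3.36 to 224 ± 5.20 CPM (log2 fold change -0.16). Of the genes that mature NRF1, the protease gene Ddi2 fell by 0.27 and the deglycosylase gene Ngly1 rose by 0.37. Ube3c, a ubiquitin ligase bound to the proteasome, fell by 0.28, and the adaptor gene Ubqln2 rose by 0.20.

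Genes that regulate the inducible subunits or use their peptides were read from a list of 16: 7 rose, 5 fell and 4 did not pass (median 0.07 on the log2 scale). The share called was 75.0%, against 47.2% of all genes tested. This list was chosen with earlier results of these data known, so setting these shares side by side tests nothing. Besides Tap1 and Tap2, Tapbpl, a peptide editor, fell by 3.99 on the log2 scale (SE 0.11). Erap1, the peptidase that trims proteasome products, fell by 1.49. Of the factors known to drive the immunoproteasome genes, Irf1 rose from 19.99, 20.8 and 21.7 CPM to 24.5, 27.6 and 25.9 CPM (log2 fold change 0.32, SE 0.06). Nlrc5, the class I transactivator, was at 1.46, 1.57 and 1.74 CPM in Parental and 0.806, 1.43 and 1.19 CPM in IRF2_KO and did not pass (log2 fold change -0.48, edgeR adjusted p = 0.0723, and -0.66 with adjusted p = 0.0254 without IRF2_KO replicate 2).

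The symbols kept apart gave the following values. Psmc3ip, a meiotic recombination factor that only shares its name with the ATPase Psmc3, was called lower (log2 fold change -0.15, edgeR adjusted p = 0.0354). Psme3ip1, which binds the PSME3 activator, did not pass (log2 fold change -0.11, edgeR adjusted p = 0.0634).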

How the data were processed

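Counts of uniquely aligned reads per Entrez gene were deposited by the authors for 6 libraries; the submitters' processing notes name GSNAP and GRCm38, while versions, annotation and use of strand in counting were not given in the sources used here. The second deposited value is nRPKM, an RPKM that the authors adjusted by a size factor, used for levels between genes; its ratio to the count differed between libraries by 1 factor per library. The protocol names a stranded total RNA kit and the molecule label polyadenylated RNA. Symbols came from RefSeq (GRCm38.p6) for 31049 of 36528 IDs.

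Counts were fitted over the whole table in R 4.3.3 with edgeR 4.0.16 (filterByExpr, TMM, robust quasi-likelihood F-test, two-sided). SE was derived from the log2 fold change and F. Alternatives used limma 3.58.1, DESeq2 1.42.0, other factors, filters and thresholds, and each library left out. Libraries of a group differed by more than sampling noise (mean chi-square per gene 2.78 to 10.1, where noise gives 1), so none was treated as a library deposited more than once; this does not show separate cultures. A total of 3 counts equal 0.0751 to 0.103 CPM, which covers counting error only.

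Members and lists were chosen with earlier results of these data known. Genes with values are the 5 inducible subunits, Psmb5, Psmb6, Psmb7, Psme3, Psme4 and the 12 other members with the smallest adjusted p, and from each list for the 6 smallest adjusted p plus Irf1, Irf2, Nlrc5, Tap1, Nfe2l1 and Pomp. Other genes were named after their values were seen. One gene that this rule selects is not reported here. Protein sequences were not used here.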

Additional observations from a re-analysis of the deposited data

How the results depend on the processing

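No paired analysis was possible because the labels give no replicate numbers that could pair libraries. Psmb9 and Psmb8 stayed called in all 15 alternatives (log2 fold changes -3.84 to -3.42 and -2.48 to -2.39). Against a minimum change of 1.5-fold (glmTreat), 2 members were lower (both inducible) and 0 higher, with 0 ATPases, 0 non-ATPase genes and 0 core genes lower; of the assembly and control list 0 rose and 0 fell, and of the class I list 3 rose. Members called higher numbered 2 with RLE factors, 0 with library size alone and 0 at an adjusted p under 0.01, where 0 non-ATPase genes rose under the last pair of settings. Constitutive core genes called lower numbered 0 with RLE factors (1 higher), 4 with library size alone, 0 with DESeq2 and 0 at an adjusted p under 0.01. With each library left out in turn, members lower ranged from 16 to 19 and higher from 0 to 3, core genes lower from 0 to 2 and higher from 0 to 1, non-ATPase genes higher from 0 to 2, and ATPases and inducible subunits lower stayed at 5 and 5. Signs turned without IRF2_KO replicate 1 for Psma2 (range with a library left out -0.058 to 0.017), Psmb6 (-0.12 to 0.032) and Psme4 (-0.028 to 0.091), and without Parental replicate 2 for Pomp (-0.0092 to 0.042), which also turned with library size alone (-0.00866); none of these 4 genes passed the test. The log2 ratios of the 5 pairs kept their sign in every alternative; Psmb9 to Psmb6 ranged from -3.73 to -2.39, the last at a pseudocount of 1. At 23 to 41 reads, depth limits the size of the Psmb9 fall, not its direction.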
